A study of Mus musculus with 12 samples.

Results

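The genes described here encode the machinery that copies DNA and part of the supply of its building blocks. They are 44 mouse genes, found in the count table by their Ensembl identifiers among 53379 genes in all. They were listed by function, but with earlier results of these data known. All 44 passed the filter on low counts and were tested with 14299 genes in total. The RNA is that of a mouse B cell lymphoma line of the Eµ-myc model on a C57BL/6 background, where the Myc oncogene is driven by the enhancer of the immunoglobulin heavy chain. The 4 groups had 3 libraries each. They were cells left without stimulation, and cells that received recombinant mouse IFN-γ, the type II interferon, at 5 ng/mL for 1 h, 6 h or 24 h. A neutralising antibody to IFN-γ at 50 µg/mL ended the shorter exposures, and cells were taken at 24 h, so the comparisons address what was left at harvest after a short or a full exposure. The line is a single Myc-driven tumour line, and the labels give neither separate cultures for the 3 samples of a group nor the antibody status of the 24 h and unstimulated samples. The p-values therefore measure the spread between these samples, which may be technical, and the length of exposure and the antibody cannot be told apart in comparisons with the 1 h and 6 h groups.

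A DNA replication origin is first bound by the origin recognition complex, which with Cdc6 and Cdt1 loads the ring-shaped MCM2-7 helicase. Cdc45 and the GINS complex turn that ring into an active helicase, primase and the replicative polymerases copy the strands behind it, and the sliding clamp Pcna, placed by replication factor C, holds the polymerases on DNA. Many of these genes are known targets of the E2F transcription factors and are transcribed as cells enter S phase, and a Myc-driven lymphoma divides fast.

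Library totals were between 49440358 and 67096610 counts. The 24 h libraries stood apart on the first principal component (44.15% of the variance), and IFNg_6h replicate 3 did on the next (7.84%). Irf1, a direct target of IFN-γ signalling, had 10.4, 10.5 and 10.8 CPM (counts scaled to library size by TMM) without stimulation, 10.3, 10.3 and 10.8 CPM after 1 h, 11.4, 12.3 and 12.5 CPM after 6 h and 231, 215 and 218 CPM after 24 h. The summed level of 8 T and NK cell markers was 0.69 to 1.37 CPM and that of 8 myeloid markers 1.32 to 2.87 CPM over the 12 libraries, with Cd8a, Ncr1, Nkg7, Ly6g, Csf3r, S100a8 and S100a9 at 0 in all of them. Of 8 B cell markers, 2 were called higher at 24 h than in unstimulated cells, Ms4a1 and Cd22, and 4 lower, Pax5, Ebf1, Blnk and Cd79a, and their summed level was 2533 to 2559 CPM at 24 h and 2695 to 2776 CPM in unstimulated cells. Of 6 stromal and endothelial markers, Pecam1 had 87.2, 89.5 and 91.5 CPM at 24 h and 57.3, 58.9 and 57.8 CPM in unstimulated cells, Cdh5 was at 2.26 to 2.90 CPM in these libraries, and Col1a1, Col1a2, Pdgfrb and Kdr were at or near 0. The part of these markers in the results was not tested.

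The replication genes were abundant in this line. Per kilobase of exon, their median level in unstimulated cells was 31.1 CPM, against 4.12 CPM over all genes tested that have an annotated length, and each of the 44 lay above that median. Pcna was the most abundant per length at 209 ± 3.48 CPM per kb (SD, n = 3), and 149.5 ± 2.40 CPM per kb were measured for Mcm6 and 139 ± 2.18 for Mcm3. Uhrf1, Mcm5, Mcm4 and Mcm7 followed at 124, 115, 108 and 95.5 CPM per kb, and Uhrf1 and Mcm5 differed by less than the sum of their SDs. Ribonucleotide reductase, which makes deoxyribonucleotides, stood at 82.4 CPM per kb for Rrm2 and 73.5 for Rrm1. At the low end were the GINS subunit genes Gins3 at 9.91 and Gins2 at 8.33 CPM per kb and the thymidylate synthase gene Tyms at 6.51 CPM per kb. The exon lengths come from an annotation that may differ from the authors' in part.

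**Figure D1:**
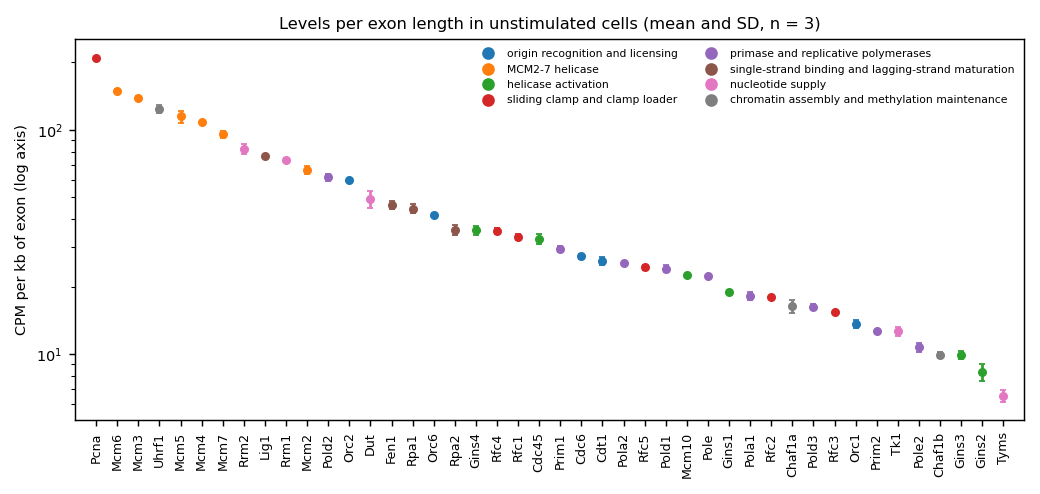
Level per exon length of the 44 replication genes in unstimulated cells, in CPM per kb of exon on a log axis, in descending order; points are means and bars SD over 3 libraries, coloured by role. The MCM2-7 genes lie between 66.3 CPM per kb for Mcm2 and 149.5 for Mcm6, while Gins2 and Tyms are lowest.

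The question of the main comparison is what a full 24 h of IFN-γ did to these transcripts. The answer was a small fall in part of the set: 9 of the 44 genes (20.45%) were lower after 24 h than in unstimulated cells and 0 were higher, by edgeR's quasi-likelihood test with Benjamini-Hochberg adjustment over all genes. The 9 were Mcm2, Mcm3, Mcm7, Gins2, Pcna, Pole, Lig1, Chaf1a and Uhrf1, and they fell by between 8.49% for Lig1 and 17.1% for Gins2. Over all genes tested, 8.35% were called lower and 10.3% higher. Among the 5773 genes within the members' range of mean CPM, 12.1% were called lower and 12.3% higher. At an unadjusted p under 0.05, 16 members were lower and 0 higher, against 2113 and 2209 of the 14299 genes tested. DESeq2 called 12 lower and limma-voom 10, with 0 higher by either tool. The shares of all genes called, here and below, are those of the main edgeR fit. Shares for the other tools and fits are not given. The libraries of the 2 groups did not overlap in 16 members that were lower and 2 that were higher, against 16.8% and 17.2% of all genes. These are bulk libraries, in which fewer cells expressing a gene and less RNA per cell cannot be told apart.

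The log2 fold changes of the 44 genes ran from -0.27 to 0.09 with a median of -0.08, and 34 of 44 were negative. Over all genes the median was -0.003. The interquartile range was -0.12 to -0.01 for the members and -0.09 to 0.07 for the 5773 genes of the same range of CPM. The SD was 0.09 for the members and 0.48 for those genes, among which the fold changes reach 16.0 on the log2 scale. Only Gins2 and Mcm3 passed 0.25 in absolute size, 4.55% of the members, against 9.02% of the genes in that range of CPM. In 40 of the 44 genes the 95% interval of the log2 fold change lay within 0.25 on both sides of 0. The precision behind this was high: the median coefficient of variation between replicates was 3.2% over the members and 3.86% over genes of the same CPM range, and it was 0.945% for Mcm4 and 6.68% for Dut, the lowest and highest of the set.

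**Figure D2:**
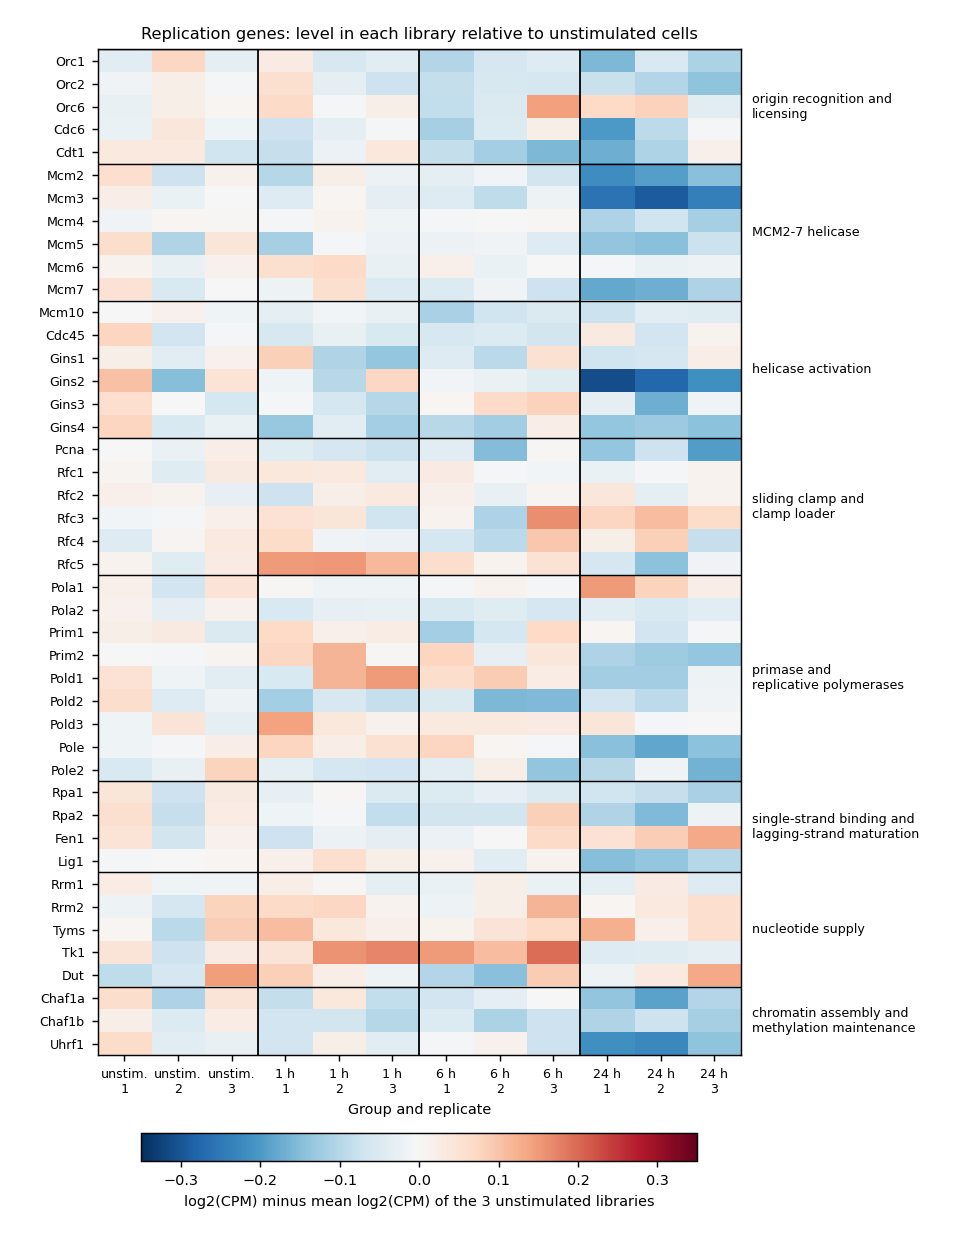
Level of each of the 44 replication genes (rows, grouped by role) in each of the 12 libraries (columns, by group and replicate), as log2 CPM minus the mean log2 CPM of the 3 unstimulated libraries; blue is lower and red higher. In the 24 h libraries 33 to 35 of the 44 genes are below the unstimulated mean, with Mcm3, Gins2, Mcm2 and Uhrf1 darkest.

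**Figure D3:**
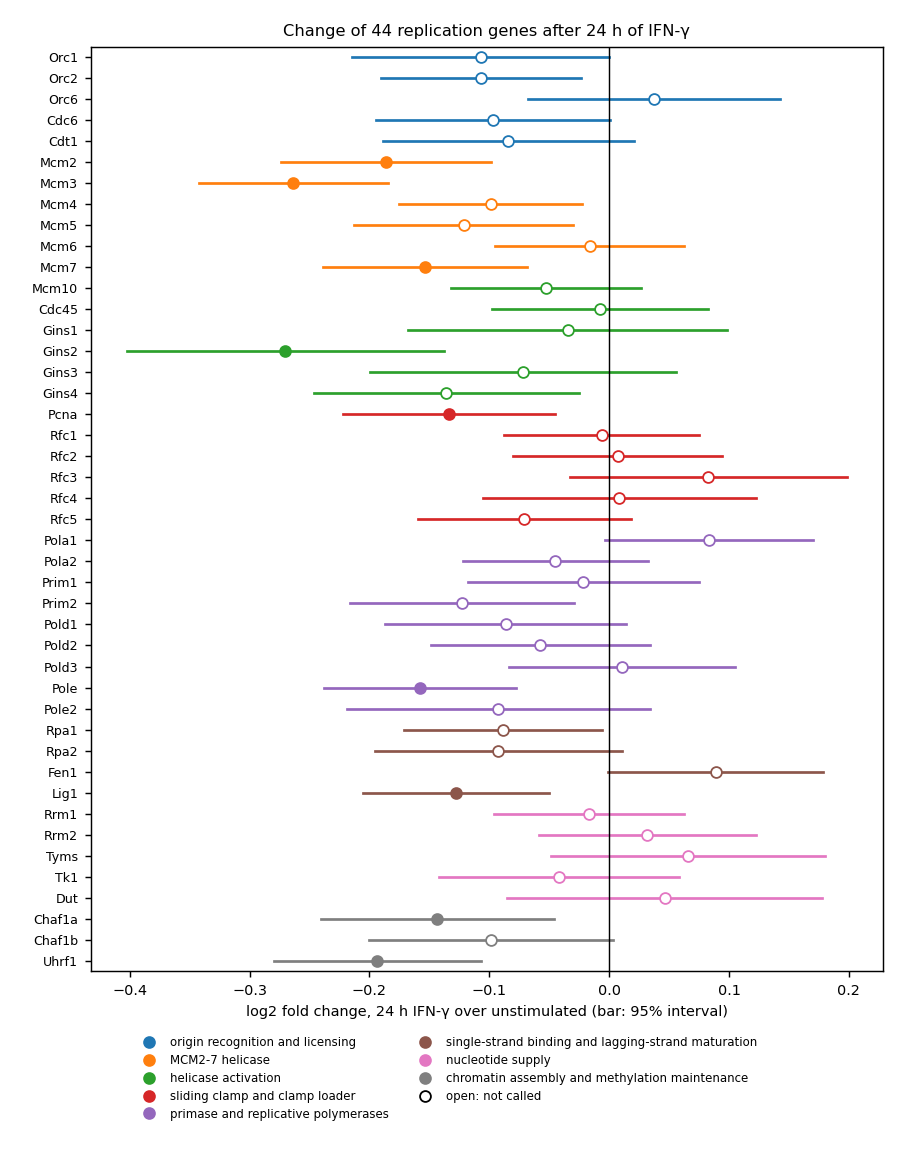
Log2 fold change of each gene, 24 h of IFN-γ over unstimulated cells, with its 95% interval; filled points passed an adjusted p under 0.05 and open points did not, and colours mark the roles. All 6 MCM2-7 genes lie left of 0 and 3 of them are filled, while the 5 nucleotide supply genes lie between -0.04 and 0.07.

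None of the origin recognition and licensing genes was called by the main edgeR fit. Of Orc1, Orc2, Orc6, Cdc6 and Cdt1, 0 of 5 passed the test at 24 h against unstimulated cells (2 lower at an unadjusted p under 0.05; 1 of 5, Orc2, by DESeq2 and 0 by limma-voom), and their log2 fold changes ran from -0.11 for Orc1 to 0.04 for Orc6. Orc2, a core subunit of the origin recognition complex and the most abundant of the 5 per length, had 229, 234 and 229 CPM without stimulation, 239.8, 225 and 219 CPM after 1 h, 217, 222 and 221 CPM after 6 h and 219, 215 and 209 CPM after 24 h. The 24 h and unstimulated groups did not overlap, but the log2 difference was -0.11 ± 0.04 (SE) and missed the threshold (edgeR adjusted p = 0.0675). Orc2 was called lower by DESeq2 (adjusted p = 0.0483). It was also called by edgeR with the GC or the length trend removed (adjusted p = 0.00455 and 0.034). Of Orc2's exon bases, 29.82% overlap the gene Nif3l1 on the opposite strand, and the strand setting of the counting is not given, so its level carries that uncertainty. Cdc6, which loads the helicase, had 124, 134 and 142 CPM at 24 h and 141, 147 and 141 CPM in unstimulated cells. For its partner Cdt1 the values were 72.9, 76.1 and 83.1 CPM at 24 h and 84.0, 84.1 and 78.2 CPM in unstimulated cells. In both genes IFNg_24h replicate 3 lay inside the unstimulated range.

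Of the 6 MCM2-7 helicase genes, 3 fell. Mcm2, Mcm3 and Mcm7 were lower at 24 h, Mcm4, Mcm5 and Mcm6 were not called, and the median log2 fold change of the 6 was -0.14. Mcm3 (ENSMUSG00000041859.10, chromosome 1, 20802968 to 20820312, minus strand) had 530.0, 514 and 522 CPM in the 3 unstimulated libraries, 506, 524 and 511 CPM after 1 h, 506, 491 and 516 CPM after 6 h and 436, 426 and 442 CPM after 24 h. The 24 h libraries lay below the other 9, which overlapped each other. Mcm3 fell by 16.7%, which is -0.26 ± 0.04 (SE) on the log2 scale (edgeR adjusted p = 7.33e-06). Mcm2 (ENSMUSG00000002870.8, chromosome 6, 88883474 to 88898780, minus strand) had 479.6, 438 and 465 CPM without stimulation, 429.7, 468 and 454 CPM after 1 h, 451, 458 and 441 CPM after 6 h and 396, 403 and 416 CPM after 24 h. Its 24 h libraries were again the 3 lowest of the 12, and its log2 fold change against unstimulated cells was -0.19 ± 0.04 (edgeR adjusted p = 0.00219). Mcm7 (ENSMUSG00000029730.16, chromosome 5, 138164583 to 138172422, minus strand) had 438, 407 and 423 CPM without stimulation, 418, 439 and 409 CPM after 1 h, 409, 419 and 402 CPM after 6 h and 373, 375 and 392 CPM after 24 h. Its 24 h libraries lay below the other 9 (-0.15 ± 0.04 against unstimulated cells; edgeR adjusted p = 0.00905). The call of Mcm7 was lost without IFNg_24h replicate 1 or Unstimulated replicate 1 (adjusted p = 0.0562 and 0.0839).

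The other 3 subunits of the ring were not called. Mcm6, the most abundant of the 6 per length, had 703, 685 and 705 CPM without stimulation, 726, 730.3 and 686 CPM after 1 h, 707, 687 and 698 CPM after 6 h and 694, 687 and 689 CPM after 24 h. The 24 h values lay inside the unstimulated range and the 95% interval of the log2 fold change, 24 h over unstimulated, was -0.10 to 0.06. Mcm4 had 359.7, 369 and 358 CPM at 24 h and 385, 389.7 and 389 CPM in unstimulated cells, without overlap, yet its log2 fold change of -0.10 ± 0.04 missed the threshold (edgeR adjusted p = 0.0626), though DESeq2 and limma-voom called it. Mcm5 had 416, 414 and 435 CPM at 24 h and 478, 426 and 472 CPM in unstimulated cells. Its groups overlapped through unstimulated replicate 2 (-0.12 ± 0.04; edgeR adjusted p = 0.0563). Whether the subunits differ from each other in their change was not tested. The summed CPM of the 6 genes was 2860 to 3014 in unstimulated libraries, 2888 to 3010 after 1 h, 2889 to 2910 after 6 h and 2676 to 2731 after 24 h, so the 24 h libraries lay below all others.

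The promoters of 3 of these subunits show the sequence elements that E2F factors are known to bind, in a gene that fell most within the ring (Mcm3), one that fell less (Mcm7) and one that was not called (Mcm6). Each window runs from 250 bases before to 50 bases after the RefSeq start site on GRCm38.p6, read 5′ to 3′ on the gene's strand, which is the minus strand for all 3. Capitals mark matches on either strand to TTTCCCGC, TTTGGCGC, TTTCGCGC or TTTGCCGC, and overlapping matches were counted singly.
Mcm3 promoter, chr1:20820263-20820562: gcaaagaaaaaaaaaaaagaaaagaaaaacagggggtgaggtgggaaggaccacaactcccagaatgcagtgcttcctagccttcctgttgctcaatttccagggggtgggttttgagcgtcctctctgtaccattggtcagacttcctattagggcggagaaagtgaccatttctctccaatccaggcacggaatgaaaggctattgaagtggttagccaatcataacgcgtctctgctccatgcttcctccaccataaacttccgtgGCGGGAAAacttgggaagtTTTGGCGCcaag
Mcm6 promoter, chr1:128359656-128359955: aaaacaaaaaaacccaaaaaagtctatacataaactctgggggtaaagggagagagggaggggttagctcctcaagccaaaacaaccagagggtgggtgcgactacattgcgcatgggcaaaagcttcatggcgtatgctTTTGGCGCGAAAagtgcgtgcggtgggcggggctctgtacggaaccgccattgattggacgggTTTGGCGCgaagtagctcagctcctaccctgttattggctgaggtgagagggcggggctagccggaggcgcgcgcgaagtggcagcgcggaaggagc
Mcm7 promoter, chr5:138171834-138172133: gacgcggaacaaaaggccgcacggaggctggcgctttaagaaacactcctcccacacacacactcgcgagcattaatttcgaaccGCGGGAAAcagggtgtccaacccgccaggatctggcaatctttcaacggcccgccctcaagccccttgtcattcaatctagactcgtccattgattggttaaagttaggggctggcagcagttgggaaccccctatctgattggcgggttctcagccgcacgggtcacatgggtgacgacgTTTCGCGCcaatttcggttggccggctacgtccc
Mcm3 held 2 matches, both after the start site. Mcm6 held 3, all before it, of which 2 overlap in 1 run. Mcm7 held 2, one on each side of its start site, in the first of the windows listed for it. Each of the 3 windows also holds the CCAAT box, written CCAAT on one strand and ATTGG on the other.

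RefSeq windows were found for 37 of the 44 genes, and Mcm4, Gins1, Gins2, Gins4, Rfc2, Prim2 and Pole are without one here. At least 1 E2F match was present in 13 of the 37 windows (35.1%), against 4.3% of 9451 windows of genes tested and 2.3% of 27025 windows in all. The CCAAT box was in 23 (62.2%, against 39.6% of windows of genes tested), and the E-box CACGTG, bound by Myc with Max, in 6 (16.2%, against 10.5%). Both strands were searched for each motif. An E2F match stood in 2 of the 7 windows of genes called lower at 24 h, those of Mcm3 and Mcm7, and in 11 of the 30 windows of genes not called, Mcm6 and Mcm5 among them. The window of Mcm2, also called lower, held 0 E2F matches. A match is a run of letters and does not show binding.

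Among genes that turn the loaded ring into a working helicase, 1 of 6 was lower at 24 h. Gins2 (ENSMUSG00000031821.11, chromosome 8, 120578633 to 120589304, minus strand), a subunit of the GINS complex, had 36.5, 30.7 and 35.2 CPM without stimulation, 33.7, 31.8 and 35.8 CPM after 1 h, 33.8, 33.5 and 33.0 CPM after 6 h and 27.4, 28.1 and 29.3 CPM after 24 h. The 3 values at 24 h were the lowest of the 12, and the fall of 17.1% was the largest of the 44 by its estimate, within 1 SE of that of Mcm3 (-0.27 ± 0.06 on the log2 scale; edgeR adjusted p = 0.00314). In the annotation 67.32% of its exon bases are shared with Gse1 on the opposite strand, so reads of the 2 genes may not be separable here. Gse1 itself was not called, with 79.3 ± 2.95 CPM at 24 h and 85.1 ± 3.17 CPM in unstimulated cells (SD, n = 3 each; log2 fold change -0.10 ± 0.06, edgeR adjusted p = 0.235). Gins4, the most abundant GINS gene per length, had 50.7, 46.4 and 47.4 CPM without stimulation, 43.9, 47.0 and 44.3 CPM after 1 h, 45.01, 44.26 and 48.95 CPM after 6 h and 43.9, 44.1 and 43.6 CPM after 24 h. The 24 h and unstimulated groups did not overlap, at -0.14 ± 0.05 (edgeR adjusted p = 0.0798). Gins1, Gins3, Cdc45 and Mcm10 were not called, at -0.03, -0.07, -0.01 and -0.05 on the log2 scale.

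The sliding clamp fell and its loader was not called. Pcna (ENSMUSG00000027342.14, chromosome 2, 132249162 to 132253314, minus strand), the ring that tethers polymerases to DNA, had 501, 492 and 509 CPM without stimulation, 486, 480.2 and 475 CPM after 1 h, 487, 450.5 and 502 CPM after 6 h and 455, 476 and 437 CPM after 24 h. All 3 values at 24 h lay below the unstimulated ones but overlapped those of 6 h and 1 h. The log2 fold change against unstimulated cells was -0.13 ± 0.04 (edgeR adjusted p = 0.0286), and the call was lost when IFNg_24h replicate 1 or 3 or Unstimulated replicate 1 or 3 was left out, with adjusted p = 0.0873, 0.136, 0.0916 and 0.11. Of the 5 loader subunits Rfc1 to Rfc5, 0 were called by edgeR, DESeq2 or limma-voom (0 at an unadjusted p under 0.05), and their log2 fold changes ran from -0.07 for Rfc5 to 0.08 for Rfc3. Rfc3 had 58.74, 60.02 and 58.3 CPM at 24 h and 55.32, 55.45 and 56.4 CPM in unstimulated cells, without overlap but not called (edgeR adjusted p = 0.339).

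Of 9 primase and polymerase genes, Pole alone was called at 24 h against unstimulated cells. Pole (ENSMUSG00000007080.14, chromosome 5, 110286306 to 110337474, plus strand), the catalytic subunit of the leading-strand polymerase epsilon, had 245, 247 and 252 CPM without stimulation, 261, 252 and 257 CPM after 1 h, 261, 249 and 247 CPM after 6 h and 224, 218 and 224 CPM after 24 h. The 24 h libraries lay below all 9 others. Pole fell by 10.3% against unstimulated cells (-0.16 ± 0.04 on the log2 scale; edgeR adjusted p = 0.00444). Prim2, the large primase subunit, had 70.0, 69.3 and 68.8 CPM at 24 h and 75.5, 75.1 and 75.9 CPM in unstimulated cells, without overlap. Its log2 fold change of -0.12 ± 0.05 was not called by edgeR (adjusted p = 0.061) and was by DESeq2 (adjusted p = 0.0434) and with the length or GC trend removed. Pola1, the catalytic subunit of polymerase alpha, stood at 0.08 ± 0.04 (edgeR adjusted p = 0.186), with 177, 169 and 163 CPM at 24 h and 162, 153 and 165 CPM in unstimulated cells, which overlap. Pold2, the most abundant of the 9 per length and an accessory subunit of polymerase delta, had 121, 113 and 115 CPM without stimulation, 107, 112 and 109.9 CPM after 1 h, 112, 104 and 105 CPM after 6 h and 111, 109 and 115 CPM after 24 h, and its 24 h and unstimulated libraries overlap. The other 5, Pola2, Prim1, Pold1, Pold3 and Pole2, had log2 fold changes from -0.09 to 0.01 and were not called.

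Of 4 single-strand binding and lagging-strand genes, Lig1 was called. Lig1 (ENSMUSG00000056394.17, chromosome 7, 13277283 to 13311433, plus strand), which joins Okazaki fragments, had 323, 326 and 326 CPM without stimulation, 329, 338 and 329 CPM after 1 h, 328, 317 and 328 CPM after 6 h and 293, 296 and 303 CPM after 24 h. Its 24 h libraries were the 3 lowest, and its log2 fold change against unstimulated cells was -0.13 ± 0.04 (edgeR adjusted p = 0.0172). That call was lost without IFNg_24h replicate 1 or 2 or without Unstimulated replicate 1 or 3, with adjusted p between 0.0526 and 0.0844. Fen1, which cuts the flaps of those fragments, had 115.9, 118.8 and 122.8 CPM at 24 h and 115.7, 107.2 and 113.3 CPM in unstimulated cells. The 24 h values were the higher ones, the lowest of them only just above the highest unstimulated one, but the log2 fold change of 0.09 ± 0.04 was not called (edgeR adjusted p = 0.169), and 78.82% of Fen1's exon bases are shared with an antisense gene. The single-strand binding genes Rpa1 and Rpa2 stood at -0.09 ± 0.04 and -0.09 ± 0.05 and were not called.

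The nucleotide supply genes were not called. Of Rrm1, Rrm2, Tyms, Tk1 and Dut, 0 of 5 were called at 24 h against unstimulated cells, 0 by DESeq2 or limma-voom and 0 at an unadjusted p under 0.05. Rrm2, the small subunit of ribonucleotide reductase, had 225, 219 and 241 CPM without stimulation, 239, 239.9 and 230.1 CPM after 1 h, 226, 232 and 248 CPM after 6 h and 229, 234 and 238 CPM after 24 h. The 24 h values lay inside the unstimulated range, and the 95% interval of their log2 fold change was -0.06 to 0.12. Rrm1, its large subunit, had 790.3, 825 and 784 CPM at 24 h and 824, 801 and 802 CPM in unstimulated cells, with an interval of -0.10 to 0.06. Tyms, which makes thymidylate, and Dut, which breaks down dUTP, had log2 fold changes of 0.07 ± 0.06 and 0.05 ± 0.06. The intervals of all 5 genes lay within 0.25 of 0.

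Genes that rebuild chromatin and its methylation behind the fork were lower in 2 of 3 cases. Uhrf1 (ENSMUSG00000001228.14, chromosome 17, 56303321 to 56323486, plus strand), which recruits the maintenance methyltransferase Dnmt1, had 553, 515 and 520.2 CPM without stimulation, 505, 537 and 516 CPM after 1 h, 527, 534 and 504 CPM after 6 h and 456, 453 and 480.2 CPM after 24 h. The 24 h libraries lay below the other 9, and Uhrf1 fell by 12.6% against unstimulated cells (-0.19 ± 0.04 on the log2 scale; edgeR adjusted p = 0.00132). Chaf1a (ENSMUSG00000002835.8, chromosome 17, 56040439 to 56072289, plus strand), the large subunit of chromatin assembly factor 1, had 151, 134 and 149 CPM without stimulation, 137, 148 and 136 CPM after 1 h, 138, 142 and 145 CPM after 6 h and 132, 127 and 135 CPM after 24 h. The 24 h and unstimulated groups overlap, and the call (-0.14 ± 0.05; edgeR adjusted p = 0.0331) was lost without IFNg_24h replicate 1 or 2 or Unstimulated replicate 1 or 3 (adjusted p between 0.0889 and 0.208). It was also lost with the GC trend removed (adjusted p = 0.0563), and 52.5% of its exon bases are shared with Ubxn6 on the opposite strand. Chaf1b, another subunit of that factor, stood at -0.10 ± 0.05 (edgeR adjusted p = 0.181).

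**Figure D4:**
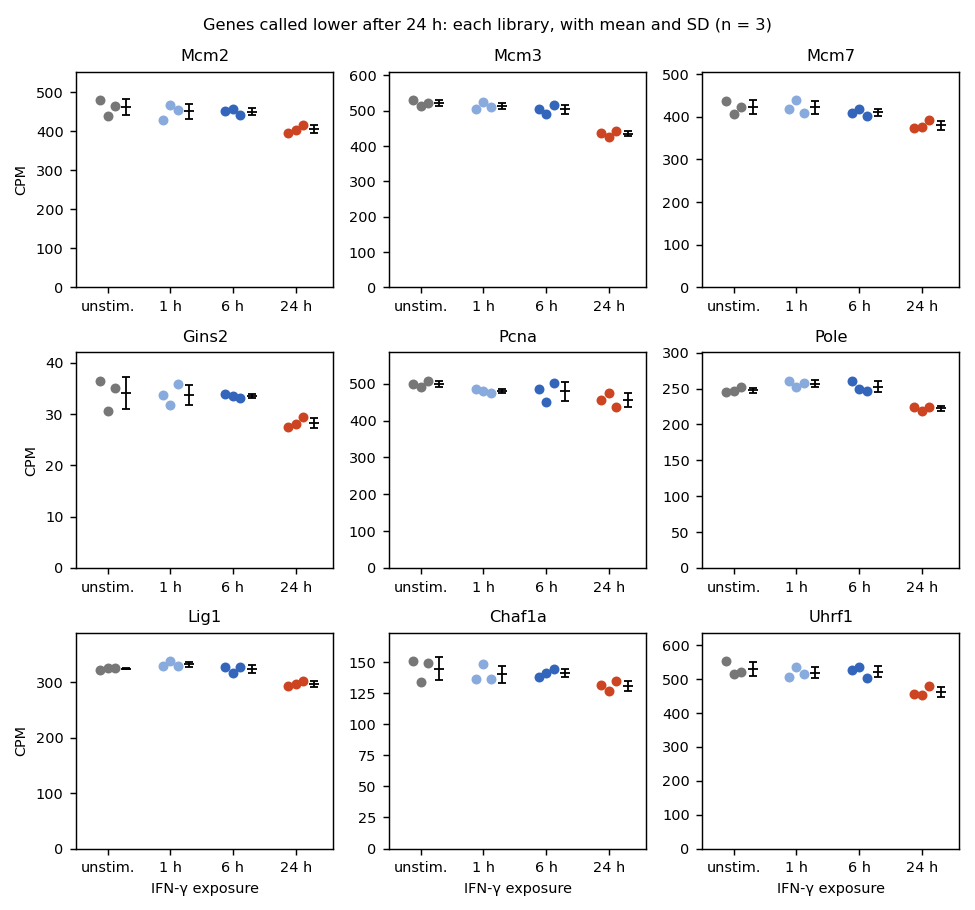
CPM of the 9 genes called lower after 24 h of IFN-γ, in each library of the 4 groups in order of exposure; points are libraries and the black bars mean and SD (n = 3), with axes from 0. The 24 h libraries lie below the unstimulated ones in all but Chaf1a, and the fall is 8.49% to 17.1% of a level that stays high.

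Level and base composition differed with the call. The 9 genes called lower had a median level of 422.8 CPM in unstimulated cells and a median exon GC content of 52.7%, against 113.9 CPM and 47.9% for the 35 not called. Over 14281 genes, Spearman's rho between GC content and the log2 fold change at 24 h was -0.16, given as a description. With each library's trend on GC content removed, 11 members were called lower and 1 higher, and 8 of the main 9 were among them. The part of the level was not tested.

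After the short exposures the replication genes were near the unstimulated level at harvest. With 6 h of IFN-γ, 0 of the 44 were called in either direction against unstimulated cells by edgeR, and 0 by DESeq2 or limma-voom, where 1.59% of all genes were called (1.17% higher and 0.427% lower). The libraries did not overlap in 1 member that was higher and 6 that were lower, against 8.64% and 8.12% of all genes. At an unadjusted p under 0.05, 1 was higher and 2 were lower, against 1132 and 876 of the 14299 genes tested. The median log2 fold change was -0.02 and the widest values were -0.12 for Pold2 and 0.15 for Tk1. Tk1, the thymidine kinase of the salvage pathway, had 67.8, 62.4 and 67.0 CPM without stimulation, 67.8, 73.3 and 73.9 CPM after 1 h, 72.9, 70.9 and 75.2 CPM after 6 h and 63.7, 63.8 and 64.2 CPM after 24 h. The 6 h libraries lay above the unstimulated ones (0.15 ± 0.05), but the difference passed the threshold only with the GC trend removed (adjusted p = 0.0362; 0.127 as fitted by edgeR). Without IFNg_6h replicate 3, the library that stands apart, 0 of the 44 were called as well.

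With 1 h of IFN-γ, 0 of the 44 were called against unstimulated cells by edgeR, DESeq2 or limma-voom, where 0.42% of all genes were called (0.273% higher and 0.147% lower). At an unadjusted p under 0.05, 2 were higher and 0 lower, against 745 and 579 of the 14299 genes tested. The libraries did not overlap in 3 members that were higher and 3 that were lower, against 7.8% and 6.98% of all genes. The 2 at the unadjusted threshold were Rfc5 at 0.14 ± 0.04 and Tk1 at 0.12 ± 0.05 (edgeR adjusted p = 0.212 and 0.389). Rfc5, a clamp loader subunit, had 114.9, 110.6 and 116.3 CPM without stimulation, 126.3, 126.5 and 123.1 CPM after 1 h, 118.8, 114.9 and 118 CPM after 6 h and 109.3, 103.1 and 112.9 CPM after 24 h, so its 1 h libraries were the highest of the 12. Between 6 h and 1 h, 0 of the 44 were called by edgeR, DESeq2 or limma-voom, and 0.0979% of all genes were called (0.0839% higher and 0.014% lower). At an unadjusted p under 0.05, 0 members were higher and 1 lower, against 434 and 272 of the 14299 genes tested. The 6 h and 1 h libraries did not overlap in 2 members that were higher and 4 that were lower, against 5.14% and 5.16% of all genes. All 44 intervals lay within 0.25 of 0 for 1 h against unstimulated cells and for 6 h against 1 h, and 43 did for 6 h against unstimulated cells.

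**Figure D5:**
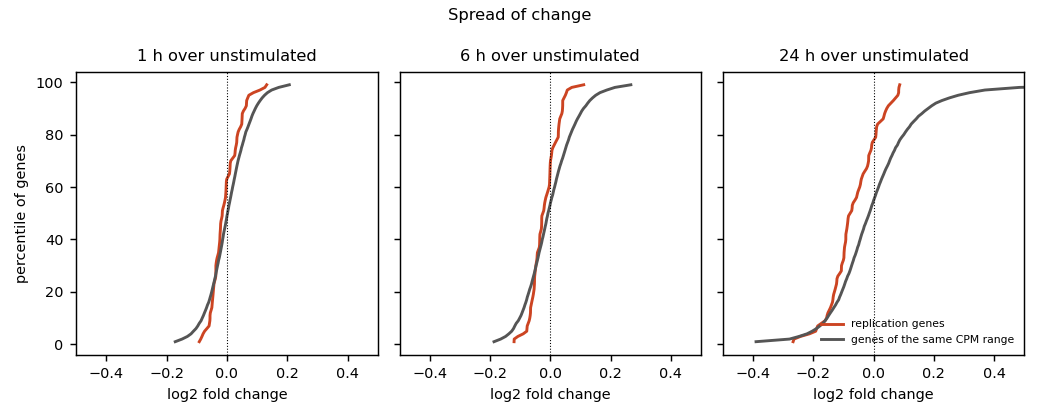
Percentiles of the log2 fold change against unstimulated cells after 1 h, 6 h and 24 h, for the 44 replication genes (red) and for the 5773 genes in the same range of mean CPM (grey). The red curve is steeper than the grey one in each panel, and at 24 h it sits to the left, with a median of -0.08.

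Direct tests of 24 h against the shorter exposures also gave lower calls. Against 6 h, 9 of the 44 genes were lower and 0 higher (0 higher by DESeq2 or limma-voom), with 7.63% of all genes called lower and 8.92% higher. Of the 44, 14 were lower and 0 higher at an unadjusted p under 0.05, against 1950 and 2093 of the 14299 genes tested. Against 1 h, 11 were lower and 1 higher, with 8.78% and 10.2% of all genes. There, 14 were lower and 2 higher at an unadjusted p under 0.05, against 2160 and 2153 of the 14299 genes tested. Libraries did not overlap in 17 members that were lower and 1 that was higher against 6 h (14.7% and 15.6% of all genes), and in 16 and 3 against 1 h (17.7% and 17.8%). The 3 comparisons of the 24 h group share its libraries, so their calls are not independent of each other. Mcm2, Mcm3, Gins2, Pole, Lig1 and Uhrf1 were lower at 24 h in each of them. Against 6 h, Mcm2 and Lig1 each lost the call in 4 of the 6 fits that leave out 1 library (adjusted p of 0.0528 to 0.0854 and of 0.0542 to 0.103), Gins2 lost it without IFNg_24h replicate 1 (0.0546), and Lig1 also with the filter of at least 1 count (0.0649). Against 1 h, Mcm2 lost it without IFNg_1h replicate 2 or IFNg_24h replicate 1 (0.116 and 0.0774), and Uhrf1 without IFNg_1h replicate 2 (0.0673). Mcm7, also called lower at 24 h than at 1 h, lost that call in 3 of the 6 such fits (edgeR adjusted p up to 0.118). For Mcm3 the log2 fold change was -0.21 ± 0.04 against 6 h (edgeR adjusted p = 0.00016) and -0.24 ± 0.04 against 1 h (edgeR adjusted p = 2.75e-05). For Pole the values were -0.18 ± 0.04 against 6 h and -0.21 ± 0.04 against 1 h (edgeR adjusted p = 0.00105 and 0.000231).

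A few genes were called only against the shorter exposures. Prim2, Pold1 and Tk1 were lower at 24 h than at 6 h and than at 1 h, and Rfc5 was lower than at 1 h, although none of the 4 was called at 24 h against unstimulated cells. Of Rfc5's exon bases, 10.69% overlap the gene Wsb2 on the opposite strand. Wsb2 was called lower at 24 h against unstimulated cells (-0.215 ± 0.07, edgeR adjusted p = 0.0362), and its change against 1 h is not given. In Tk1 the 24 h libraries lay inside the unstimulated range and below those of both shorter exposures, with -0.19 ± 0.05 against 6 h and -0.17 ± 0.05 against 1 h (edgeR adjusted p = 0.0058 and 0.0155). Pold1, the catalytic subunit of polymerase delta, had 121, 116 and 114 CPM without stimulation, 113, 127 and 129.7 CPM after 1 h, 122, 124 and 119 CPM after 6 h and 108, 108 and 116 CPM after 24 h. Its 24 h and 1 h libraries overlap (-0.16 ± 0.05; edgeR adjusted p = 0.0207), and those of 24 h and 6 h do not (-0.14 ± 0.05; edgeR adjusted p = 0.0419). Prim2 had 79.3, 81.9 and 75.8 CPM after 1 h and 79.5, 74.0 and 77.6 CPM after 6 h, all above its 24 h libraries. Of the 6 fits that leave out 1 library, the Pold1 call was lost in 4 against 6 h and in 4 against 1 h (adjusted p up to 0.168 and 0.14), the Prim2 call in 4 against 6 h (up to 0.137) and the Tk1 call in 3 against 1 h (up to 0.0992). Prim2 against 6 h was also lost with the filter of at least 1 count (0.0514). Fen1 was the 1 gene called higher, at 0.13 ± 0.04 against 1 h (edgeR adjusted p = 0.0335). That call was lost without IFNg_24h replicate 2 or 3, without any one of the 1 h libraries and with the length trend removed.

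These counts depended on single libraries. Without IFNg_24h replicate 1, 5 genes were called lower against unstimulated cells, 4 against 6 h and 7 against 1 h, and without Unstimulated replicate 1, 5 were called lower against unstimulated cells. Leaving out IFNg_24h replicate 2 or IFNg_6h replicate 1 gave 5 lower calls against 6 h, and leaving out IFNg_1h replicate 2 gave 6 against 1 h. Without Unstimulated replicate 3, 6 were called lower against unstimulated cells. That count rose to 11 without Unstimulated replicate 2 and to 10 without IFNg_24h replicate 3. Shares of all genes called in these fits are not given. Without IFNg_6h replicate 3, 8 were lower and 1, Dut, was higher at 24 h than at 6 h. Mcm2, Mcm3, Gins2, Pole and Uhrf1 stayed lower than in unstimulated cells whichever of the 6 libraries compared was left out. In a single test for any difference among the 4 groups, 10 of the 44 genes were called, where 19.2% of all genes were, and these were Mcm2, Mcm3, Mcm7, Gins2, Rfc5, Prim2, Pole, Lig1, Tk1 and Uhrf1.

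Other genes of the pathway, outside the 44, moved both ways at 24 h against unstimulated cells. Of 97 such genes in 5 lists, 94 were tested, and 11 of the 94 were higher and 15 of the 94 lower, against 10.3% and 8.35% of all genes, with a median log2 fold change of -0.03 against -0.003. Of 10 that handle chromatin at the fork, 4 were lower and 0 higher by edgeR (6 lower and 0 higher at an unadjusted p under 0.05), with a median of -0.11. Dnmt1, which copies DNA methylation to the new strand, had 639, 645 and 655 CPM at 24 h and 737, 722 and 747 CPM in unstimulated cells, without overlap (-0.19 ± 0.04; edgeR adjusted p = 0.00125). Cdca7 fell by 10.9% (edgeR adjusted p = 0.00283). Of 19 fork and polymerase accessory genes, 3 were higher (15.79%) and 4 lower (21.05%). Top2a, the topoisomerase that untangles copied DNA, was among the higher ones, with 1774, 1873 and 1729 CPM at 24 h and 1495, 1509 and 1559.5 CPM in unstimulated cells (0.24 ± 0.04; edgeR adjusted p = 5.45e-05). The fork protection gene Timeless was lower (-0.21 ± 0.05; edgeR adjusted p = 0.00139), as was the polymerase delta subunit Pold4 (-0.28 ± 0.09; edgeR adjusted p = 0.0278), while Rnaseh2c was higher (0.23 ± 0.08; edgeR adjusted p = 0.0384). The calls of Pold4 and Rnaseh2c were each lost in 4 of the 6 fits that leave out 1 library. Adjusted p by edgeR was then 0.0548 to 0.249 for Pold4 and 0.0689 to 0.155 for Rnaseh2c, and the Pold4 libraries overlap. Pold4 was also not called with the length trend removed (edgeR adjusted p = 0.0528). Rnaseh2c was not called with the filter of at least 1 count (edgeR adjusted p = 0.0561).

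Licensing and firing genes were higher in 3 of 14 cases (21.43%) and lower in 1 (7.14%), against 10.3% and 8.35% of all genes. Orc4 and Donson rose by 0.22 and 0.25 on the log2 scale (edgeR adjusted p = 0.0155 and 0.0134), and Gmnn, whose product geminin inhibits Cdt1, was the 1 lower gene (-0.18 ± 0.05; edgeR adjusted p = 0.0122). Orc4, whose libraries overlap, was not called in 4 of the 6 fits that leave out 1 library or with the GC trend removed (adjusted p = 0.0832), Donson not in 3 of 6, and Gmnn not without Unstimulated replicate 1 (adjusted p = 0.0798). Of 22 nucleotide metabolism genes, 2 were higher (9.09%) and 5 lower (22.73%), against the same 10.3% and 8.35% of all genes. The largest change of all 94 was in Samhd1, a phosphohydrolase that breaks down deoxynucleoside triphosphates, with 554, 580.1 and 580.5 CPM at 24 h and 231, 231 and 242 CPM in unstimulated cells (1.28 ± 0.04; edgeR adjusted p = 2.83e-20). Samhd1 is a known interferon-induced gene. It was also the 1 gene of the 94 called at 6 h against unstimulated cells, at 0.19 ± 0.04 (edgeR adjusted p = 0.0117; 0.0505 when these 2 groups were fitted alone, and 0.0818 without IFNg_6h replicate 2 or without Unstimulated replicate 1). Cmpk1 rose by 0.17 on the log2 scale, and the pyrimidine synthesis gene Dhodh and the kinase gene Nme1 fell by 0.25 each (edgeR adjusted p = 0.00479, 0.0033 and 0.00521; Cmpk1 was not called with the GC trend removed, at adjusted p = 0.0962, and Nme1 not without Unstimulated replicate 3, at 0.0622).

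Of 29 E2F and G1/S genes tested, which regulate entry into S phase, 3 were higher (10.34%) and 1 lower (3.45%), against 10.3% and 8.35% of all genes. The 3 were Cdkn1b, Cdkn1a and Ccnd1. E2f1, the activator best known for these targets, had 55.5, 55.5 and 61.5 CPM without stimulation, 55.1, 61.0 and 61.3 CPM after 1 h, 57.2, 54.9 and 57.2 CPM after 6 h and 53.5, 54.9 and 59.4 CPM after 24 h. It was not called at 24 h against unstimulated cells (-0.04 ± 0.06 on the log2 scale, edgeR adjusted p = 0.679). E2f3 was the 1 lower gene (-0.15 ± 0.05, edgeR adjusted p = 0.0323). The E2f3 call was lost in 4 of the 6 fits that leave out 1 library. It was also lost with the filter of at least 1 count (edgeR adjusted p = 0.0583). Myc had 1603, 1646 and 1592 CPM without stimulation, 1669, 1709 and 1810.3 CPM after 1 h, 1703, 1694 and 1665 CPM after 6 h and 1622, 1675 and 1774 CPM after 24 h and was not called either (edgeR adjusted p = 0.296). Cdkn1b, which encodes the cyclin-dependent kinase inhibitor p27, had 44.9, 49.8 and 45.8 CPM without stimulation, 49.6, 46.2 and 51.3 CPM after 1 h, 49.4, 53.4 and 47.1 CPM after 6 h and 84.6, 80.5 and 84.6 CPM after 24 h. Its 24 h libraries stood apart from the other 9, at 0.83 ± 0.06 against unstimulated cells (edgeR adjusted p = 1.4e-12). Ccnd1 encodes cyclin D1, which activates the kinases of G1, and had 116.9, 124.4 and 120.8 CPM at 24 h and 95.04, 90.3 and 94.49 CPM in unstimulated cells, without overlap (0.37 ± 0.04; edgeR adjusted p = 1.55e-07). Cdkn1a, which encodes the inhibitor p21, was low in all groups, with 3.41, 3.87 and 3.19 CPM without stimulation, 2.94, 2.32 and 2.71 CPM after 1 h, 2.96, 3.04 and 2.19 CPM after 6 h and 4.96, 4.86 and 4.67 CPM after 24 h. It was higher at 24 h than in unstimulated cells (0.47 ± 0.14; edgeR adjusted p = 0.0205, lost without any one of IFNg_24h replicate 1 or 2 or Unstimulated replicate 1 or 3).

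The proliferation marker Mki67 had 1896, 2075 and 1947 CPM without stimulation, 2386, 2159 and 2235 CPM after 1 h, 2264, 2235 and 2163 CPM after 6 h and 1878, 1859.8 and 1664 CPM after 24 h. Its 24 h libraries were the 3 lowest of the 12, and its log2 fold change against unstimulated cells was -0.13 ± 0.05 (edgeR adjusted p = 0.056; 0.045 by limma-voom). It was also called lower by edgeR with the GC or the length trend removed (adjusted p = 0.0183 and 0.015). The filter of at least 1 count and a replicate block called it too (adjusted p = 0.0185 and 0.0494). It was lower at 24 h than at 6 h and than at 1 h (-0.30 ± 0.05 and -0.33 ± 0.05; edgeR adjusted p = 2.91e-05 and 7.61e-06), and was so in every fit that leaves out 1 library. Against unstimulated cells the log2 fold change was 0.20 ± 0.05 after 1 h and 0.17 ± 0.05 after 6 h, not called by edgeR (adjusted p = 0.067 and 0.0701) but called by DESeq2 (adjusted p = 0.0284 and 0.0365), with the GC trend removed and with the filter of at least 1 count.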

How the data were processed

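Polyadenylated RNA of 12 samples, 3 in each of 4 groups, was read from both ends over 125 bp from stranded libraries, per the labels' protocols. Raw counts for each gene stand in 1 table that the authors deposited, and they were used unchanged. STAR 2.5.2a, featureCounts 1.4.3-p1, Picard and mm10 were used per the submitters' processing notes; annotation release and strand setting: not given in the sources used here. Of the genes with 1 to 20 counts, 69.9% to 73.9% per library had an even count, as when each mate of a pair adds 1 count.

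The 44 genes, their roles, the 5 wider lists and the rule for naming genes were chosen with earlier results of these data known. By that rule values in every library are given for the 12 called members with the largest change at 24 h against unstimulated cells (9 were called), for members called in the comparisons of 1 h and 6 h, for the member of each role with the highest level per exon length, and for E2f1, Myc, Cdkn1a, Mki67 and Irf1; a further gene it names is not reported here. From each wider list it names the 2 largest called rises and falls. Other members given with values, the marker genes and Ccnd1 were chosen after their values were seen. Symbols were matched by Ensembl identifier. Lengths, GC content, overlaps and coordinates (1-based, GRCm38) come from GENCODE M21; 38 of the 44 identifiers had the same version there. Promoter sequences come from RefSeq on GRCm38.p6.

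Counts were filtered with filterByExpr, scaled by TMM and fitted for all 12 libraries together with edgeR 4.0.16 (R 4.3.3) by the robust quasi-likelihood test (8 residual degrees of freedom). A gene was called when its p, adjusted by Benjamini-Hochberg over 14299 genes, was under 0.05. The SE is the log2 fold change over the root of its F statistic. Alternatives were DESeq2 1.42.0, limma-voom (limma 3.58.1), RLE factors, 2 other filters, a fit to the 2 groups compared, a replicate block, halved counts, removal of length or GC trends, an adjusted p under 0.01 and each library left out in turn. The fit was also run on counts simulated from its own model, with 200 genes changed. That run checks the working of the fit and cannot support the calls made here. On halved counts, pairs of libraries of a group had a chi-square over its degrees of freedom of 2.525 to 8.475, above what the sampling of reads alone would give. All 12 were counted as separate samples, which does not show that they came from separate cultures.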

Additional observations from a re-analysis of the deposited data

Results flagged for a closer look

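The change in these genes differed between groups where 24 h was set directly against 6 h or 1 h (edgeR adjusted p under 0.05). Each value is the difference between the 2 log2 fold changes against unstimulated cells. Length of exposure and the antibody cannot be told apart in these comparisons. The change at 24 h minus that at 6 h was -0.15 for Mcm2, -0.21 for Mcm3, -0.24 for Gins2, -0.15 for Prim2 and -0.14 for Pold1. It was -0.18 for Pole, -0.13 for Lig1, -0.19 for Tk1 and -0.17 for Uhrf1. The change at 24 h minus that at 1 h was -0.15 for Mcm2, -0.24 for Mcm3, -0.15 for Mcm7, -0.25 for Gins2 and -0.21 for Rfc5. It was -0.19 for Prim2, -0.16 for Pold1, -0.21 for Pole, -0.16 for Lig1, -0.17 for Tk1 and -0.17 for Uhrf1. Fen1 was the 1 gene with a positive difference, 0.13 against 1 h. The 24 h libraries are shared by both sets of differences.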

How the results depend on the processing

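The 9 genes called lower at 24 h against unstimulated cells were also called by DESeq2 (12 genes), limma-voom (10), RLE factors, both other filters, the fit to 2 groups, halved counts (9 each) and with the length trend removed (13). With the GC trend removed 11 were called, Chaf1a not among them, and 1, Fen1, was called higher; at 6 h against unstimulated cells that fit called 1 higher, Tk1. An adjusted p under 0.01 left 6 lower at 24 h against unstimulated cells, 5 against 6 h, and 7 lower and 0 higher against 1 h. With the length trend removed 0 were higher at 24 h against 1 h. The cause was not tested, and shares of all genes called under these settings are not given. Over the fits that each leave out 1 library, the count lower was 5 to 11 at 24 h against unstimulated cells, 4 to 9 against 6 h and 6 to 11 against 1 h. The count higher was 0 to 1 against 6 h and against 1 h, and 5 to 12 genes had any difference among the 4 groups. The median log2 fold change of the members was -0.08 to -0.06 at 24 h against unstimulated cells in these fits. No named gene or count changed direction while called. Same-numbered libraries of different groups correlated by -0.066 to 0.062 in their deviations, so no effect shared by replicate number was seen. With 3 libraries a group this cannot show that same-numbered samples were handled apart. With a replicate block, 9, 9 and 11 genes were lower at 24 h against unstimulated, 6 h and 1 h cells, and 10 had any difference. Standard errors of the members at 24 h against unstimulated cells were 0.04 to 0.06 on the log2 scale, which limits what 3 libraries a group can show.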
